A study of Mus musculus with 16 samples.

Results

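Messenger RNA of 38 genes for basement membrane proteins and integrins was followed through muscle cell differentiation in C2C12 cells, a mouse skeletal myoblast line. The genes were taken by name: 6 collagen IV chains, 5 laminin alpha chains, 5 laminin beta and gamma chains, 3 genes for nidogens and perlecan, 12 integrin alpha subunits and 7 integrin beta subunits. All 38 of 38 were found among the 24497 genes of the libraries, and 32 passed the filter on low counts and were tested. The other 6 (Col4a3, Lama1, Lama4, Itga1, Itga2 and Itga9) were near 0 counts in nearly every library, the highest being Lama4 with 46 and 17 counts in 1 group.

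Poly(A) RNA was sequenced in 16 libraries, 2 for each of 8 groups. The groups cross a genotype label (wild type, or MYOD-/- made with CRISPR-Cas9 and taken through screening of single cells), a stably transfected vector (control vector, EV, or one that expresses spliced MUNC, a noncoding RNA) and a culture state (proliferating cells, GM, or differentiating cells, DM). The source is labelled as skeletal muscle of C57BL/6 mice at postnatal day 21 for every library. The 4 cell lines are called here by their labels: WT-labelled EV, WT-labelled MUNC, knockout-labelled EV and knockout-labelled MUNC. Nothing in the labels ties the 2 replicates of a group to separate cultures, and the p-values therefore reflect a spread between libraries that may be technical. With the number of clones behind each line not given in the sources used here, a difference between lines cannot be told apart from a difference between clones.

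Total estimated counts ran from 35.83 to 107.73 M per library, with a median of 61.15 M. Myod1 went against the genotype labels: it had 1 to 18 counts in the 4 WT-labelled EV libraries and 476 to 1858 in the 4 knockout-labelled EV libraries. Myod1 had 162 to 235 counts in the 4 WT-labelled MUNC libraries and 229 to 1266 in the 4 knockout-labelled MUNC libraries. Which part of Myod1 was deleted is also unstated there, and reads from its other exons could still be counted in the knockout-labelled libraries. The cause of the low counts in the WT-labelled EV libraries was not tested. The direction of every genotype comparison below is therefore that of the labels alone. MUNC (Gm45923) stood at 1820 to 2670 CPM in the WT-labelled MUNC libraries but at 43 to 132 CPM in the knockout-labelled MUNC libraries, where CPM is the count as a share of the TMM-scaled library total. Replicates of a group correlated at 0.973 to 0.992 (Pearson's r of log2 CPM across genes). Zrsr1 took 1.49% to 13% of the counts in the replicate 2 libraries and at most 0.0348% in the replicate 1 libraries, and its part in the results was not tested.

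Basement membranes are thin sheets of matrix that surround each muscle fibre and lie under epithelia and endothelia. Laminins, each a trimer of an alpha, a beta and a gamma chain, and collagen IV form separate networks, which nidogens and the proteoglycan perlecan link. Integrins are alpha-beta pairs in the cell membrane that bind these networks and connect them to the cytoskeleton. In muscle, integrin alpha7 beta1 and dystroglycan are the main laminin receptors, and the laminin of mature fibres carries the alpha2 chain.

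Levels per transcript length (TPM) put Itgb1, the beta subunit shared by most matrix-binding integrins, first among the members, with a mean of 515 TPM over the 16 libraries. Nid1 (279 TPM), Col4a1 (209 TPM), Itga7 (184 TPM) and Itga5 (173 TPM) followed in this mean over groups that differ. In the 4 WT-labelled GM libraries Itga5 (105 to 151 TPM) exceeded Itga7 (33.7 to 83.7 TPM). Lama5 made up 94.6% to 99.9% of the summed laminin alpha TPM in each library, whereas Lama2, the alpha chain of mature muscle laminin, averaged 1.1 TPM. Collagen IV TPM came mostly from Col4a1 and Col4a2, whose joint share was between 82.4% and 98.6%. The heat map of TPM shows these high rows beside the rows near 0.

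**Figure D1:**
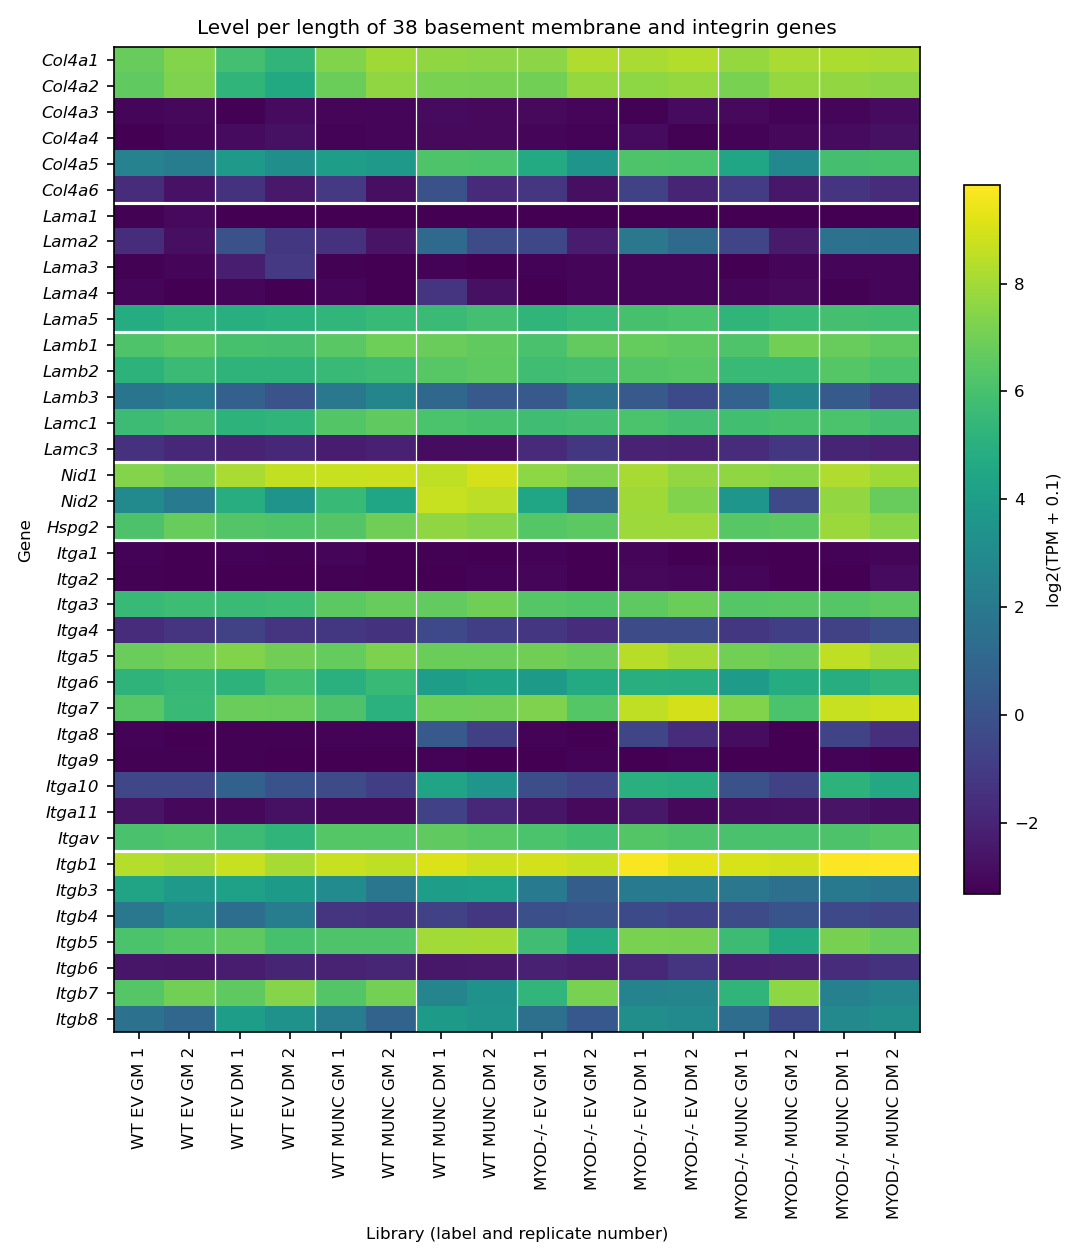
Level per length of the 38 genes, as log2(TPM + 0.1), in each of the 16 libraries; rows are grouped by family and columns by label. Itgb1 is the brightest row on average (mean 515 TPM), and Col4a1 and Col4a2 are darker in the WT EV DM columns than in the other columns.

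The comparison of DM with GM within each line asked how these genes moved on differentiation. The WT-labelled EV line lost collagen IV mRNA, with Col4a1 and Col4a2 both falling, whereas neither passed the test in the other 3 lines. In those lines Col4a5, Nid2, Itga10 and Itgb5 rose while Itgb7 fell. Whether the DM change differed from that of the WT-labelled EV line was tested for 2 of them, knockout-labelled EV and WT-labelled MUNC. Of these genes, Itga10 passed for both and Col4a2 for the knockout-labelled EV line, and no other passed. Among the 32 tested members, 3 rose and 5 fell in the WT-labelled EV line, against 19.2% and 18.3% of all 14972 genes tested, and 9 rose and 6 fell in the WT-labelled MUNC line, against 20.5% and 19.2%. In the knockout-labelled EV line 10 rose (23.5% of all genes) and 2 fell (19.7%), and in the knockout-labelled MUNC line 11 rose (24.4%) and 3 fell (20.4%). Lama3 (WT-labelled EV line) and Itga8 (the other 3 lines) are among these rises. Both passed the filter on low counts only through DM groups in which they were then called higher. The members' shares of higher calls were thus 9.38%, 28.1%, 31.2% and 34.4%, the first below and the others above the share of all genes, and no test of these shares was made. The median log2 change of the members was -0.061, 0.426, 0.33 and 0.394 in the same order of lines, beside 0.023, 0.06, 0.085 and 0.049 over all genes. Of these calls, 5 of 8, 8 of 15, 6 of 12 and 6 of 14 passed without each library in turn.

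**Figure D2:**
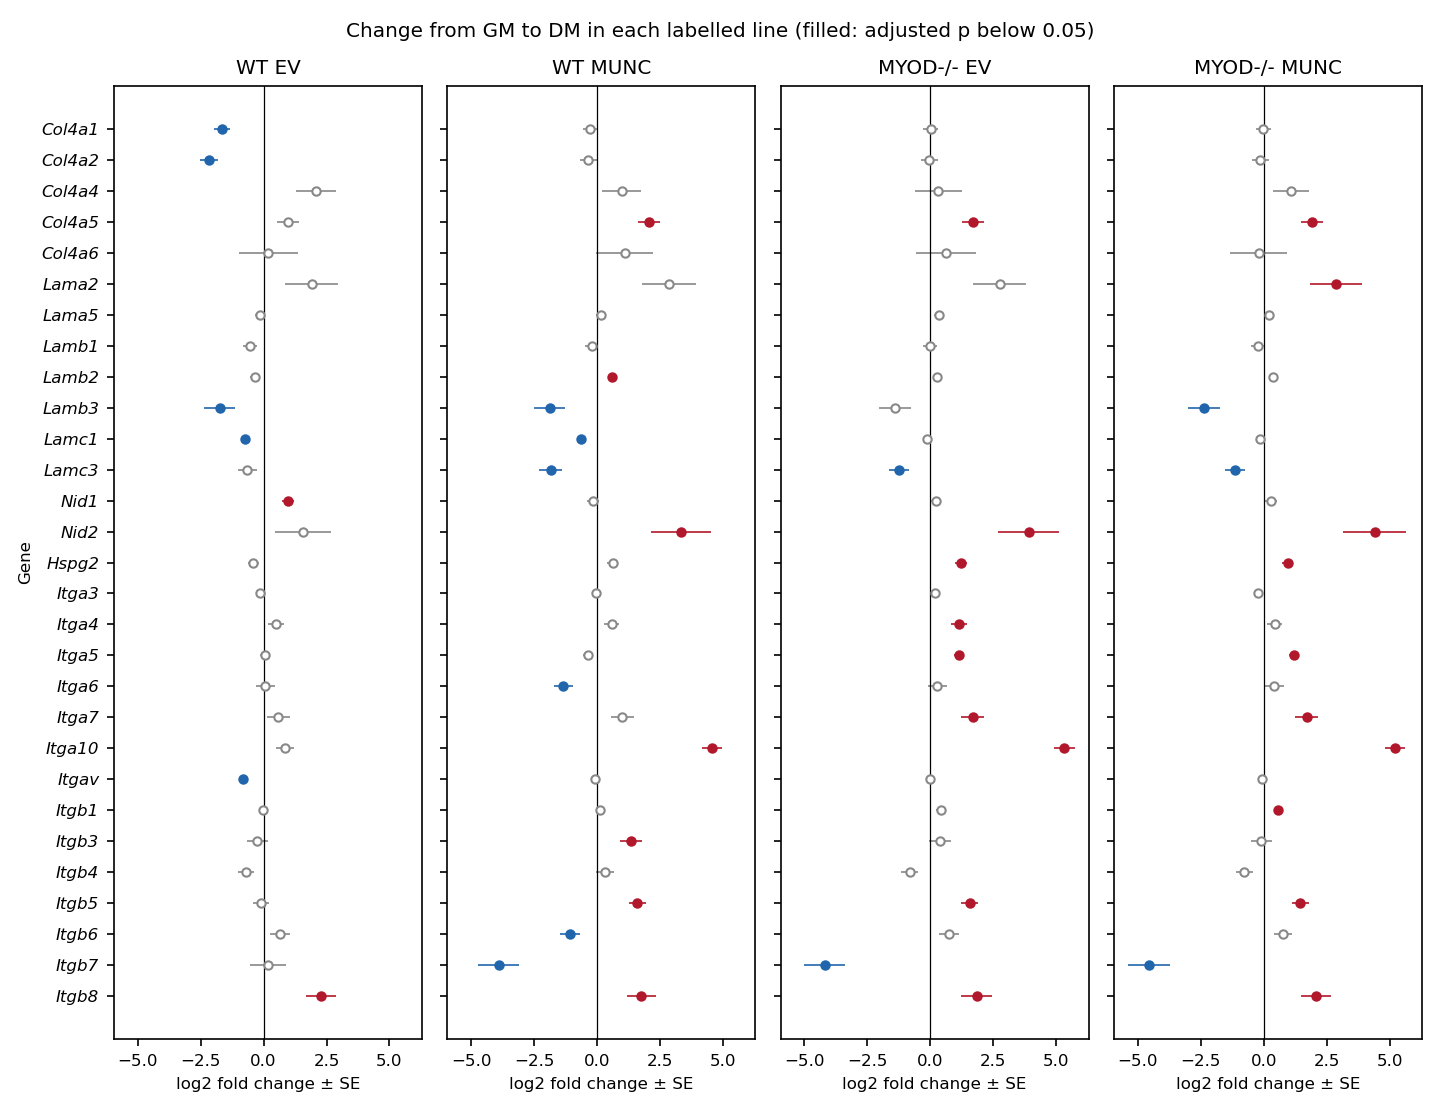
Log2 fold change from GM to DM, with its SE, of 29 tested members in the 4 labelled lines; filled points passed the test (red higher, blue lower) and open grey points did not. Lama3, Itga8 and Itga11, which were called with counts near 0 in most groups, are left out. Col4a4, also scarce (1 to 15 counts per library) but never called, is shown. Col4a1 and Col4a2 are blue in the WT EV panel alone, at -1.66 and -2.15, and Itga10 is at 4.56, 5.31 and 5.21 in the other 3 panels.

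Markers of differentiated muscle (Myog, Myh3, Acta1, Ckm, Tnnt3 and Mymk) rose in all 6 of 6 genes in both knockout-labelled lines and in 5 of 6 in the WT-labelled MUNC line, but in 3 of 6 in the WT-labelled EV line. Their summed level was 2.07 to 11.9 CPM in the 8 GM libraries. It reached 36.6 to 677 CPM in the DM libraries of the other 3 lines and stayed at 2.65 and 9.72 CPM in those of the WT-labelled EV line. The 6 fibroblast markers moved as well, with summed levels of 112 to 523 CPM in GM and 201 to 1470 CPM in DM. Within that list 3 of the 4 tested genes rose in each of the 3 lines other than WT-labelled EV, where 1 rose, and Tcf21 was at 0 in every library. Summed endothelial (0.174 to 15.9 CPM), leukocyte (1.28 to 8.39 CPM) and epithelial markers (0.977 to 22.6 CPM) were low, with Tie1 and Epcam at 0 throughout. The 6 myoblast markers summed to 133 to 388 CPM in GM. In DM they summed to 211 and 261 CPM in the WT-labelled EV line and 389 to 868 CPM in the other lines. Of the 5 tested genes, 1 rose in each line. The DM sums of those other lines came mostly from Chrna1, with 11371 to 50631 counts against 2248 to 12554 in GM. Each other gene of the list had at most 9600 counts in those DM libraries. The 5 Schwann or neural markers summed to 46.7 to 133 CPM in GM. In DM they summed to 39.7 to 49.4 CPM in the WT-labelled lines and 243 to 415 CPM in the knockout-labelled lines, where 3 (EV) and 2 (MUNC) of 4 tested genes rose, while Sox10 was below 1 CPM throughout. The part of these shifts in the members' changes was not tested, and in bulk RNA fewer cells of a type and less RNA per cell cannot be told apart.

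Between lines, the widest differences lay in DM and against the WT-labelled EV line. In DM with the control vector, 14 members were higher and 4 lower in the knockout-labelled than in the WT-labelled line, against 15.3% and 16.1% of all genes tested. With MUNC in the WT-labelled cells, 15 were higher and 5 lower in DM than with EV, against 15.6% and 17.7% of all genes. Both sets of calls include Lama3 (lower) and Itga8 (higher), which passed the filter on low counts only through groups in which they were high. The higher shares of the members were 43.8% and 46.9%, and their median log2 differences were 0.732 and 0.709 beside -0.015 and -0.002 over all genes. These comparisons share the WT-labelled EV DM libraries, so their lists are not independent of each other or of the DM change in that line. Of the 18 and 20 calls, 14 and 15 passed without each library in turn.

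The same pairs of lines differed less in GM. With the control vector 1 member was higher and 2 were lower in the knockout-labelled line, against 4.58% and 5.77% of all genes, and with MUNC in WT-labelled cells 4 were higher and 2 lower, against 6.04% and 7.71%. Between the 2 MUNC lines, 1 member was higher and 2 were lower in the knockout-labelled line in GM (4.98% and 5.02% of all genes), and 5 were higher and 4 lower in DM (12.8% and 9.89%). A fit with a term for the replicate number called more for the knockout label in GM. It called 8 members and 2405 of all genes with EV, and 6 and 2379 with MUNC. In the knockout-labelled cells no member and no gene passed between MUNC and EV with edgeR, in GM or in DM (0% of 14972 genes in each direction). At an unadjusted p below 0.05 there were 0 and 0 members, and 191 and 152 of all genes. DESeq2 called 0 members in both media, and 0 and 4 of all genes. MUNC itself stood at 132 and 106 CPM in the knockout-labelled MUNC line in GM, against 12.4 and 1.3 CPM with EV. In DM it stood at 43 and 50.4 CPM, against 12.4 and 2.23 CPM. These differences were not called with edgeR either, so the 0 calls do not show that MUNC had no effect in these cells.

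The test of whether the DM change itself differed from that of the WT-labelled EV line called 4 members higher and 0 lower for the knockout-labelled EV line (1.66% and 0.922% of all genes), which were Col4a2, Hspg2, Itga10 and Itgav. For the WT-labelled MUNC line it called 3 higher and 0 lower (1.24% and 2.09% of all genes), which were Lamb2, Itga10 and Itgav. Itga10 passed both of these under every alternative and without each library in turn. The other calls were lost without most of the 8 libraries concerned: Col4a2 without any of them (adjusted p 0.0571 to 0.191), Hspg2 and Itgav without 7 of 8 (0.0724 to 0.112, and 0.0719 to 0.232), and in the MUNC test Itgav and Lamb2 without 7 of 8 (0.0958 to 0.188, and 0.083 to 0.194). In a fit of only the compared groups, Col4a2 and both Itgav calls and Lamb2 were lost as well (0.0927, 0.128, 0.138 and 0.117). With a term for the replicate number, the test called 8 members and 898 of all genes for the knockout-labelled EV line. For the WT-labelled MUNC line it then called 9 members and 1033 of all genes.

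**Figure D3:**
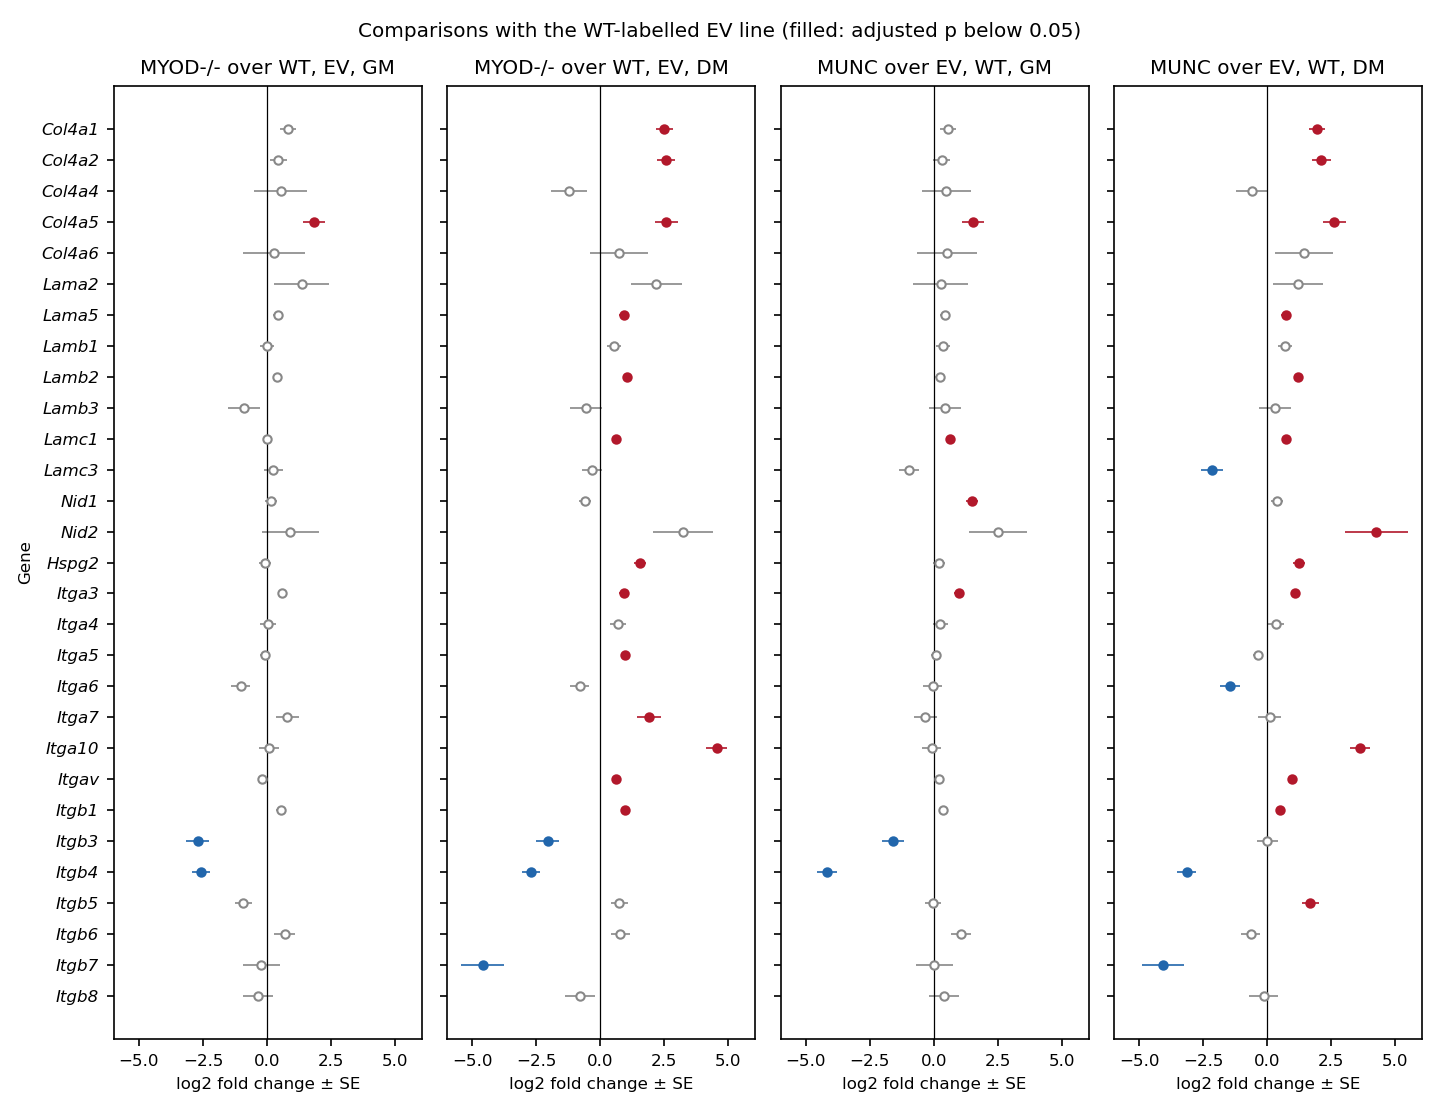
Log2 fold change, with its SE, of 29 tested members in the 4 comparisons with the WT-labelled EV line, on 1 common axis; filled points passed the test (red higher, blue lower). Col4a1 and Col4a2 are red in both DM panels (2.50 and 2.56, 1.95 and 2.12) and open in both GM panels, and Itgb4 is blue in all 4.

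Of the collagen IV chains, Col4a1 and Col4a2 fell in the WT-labelled EV line, and the other 3 tested chains passed no test there. Col4a1 (chr8:11198423-11312889) and Col4a2 (chr8:11312805-11449287) encode the chains of the collagen IV trimer found in nearly all basement membranes, and the genes lie head to head with 85 bases in common. Their RefSeq promoter windows (250 bases before to 50 after the transcript start, GRCm38.p6), chr8:11312777-11313076 on the minus strand and chr8:11312555-11312854 on the plus strand, are shown because the data turn on this pair. Capitals mark the 78 bases that lie in both windows, and the 2 transcript starts that the windows use are 21 bases apart. The Col4a1 start used there (11312826) lies inside the gene bound (11312889) that gives the 85 bases in common.
Col4a1: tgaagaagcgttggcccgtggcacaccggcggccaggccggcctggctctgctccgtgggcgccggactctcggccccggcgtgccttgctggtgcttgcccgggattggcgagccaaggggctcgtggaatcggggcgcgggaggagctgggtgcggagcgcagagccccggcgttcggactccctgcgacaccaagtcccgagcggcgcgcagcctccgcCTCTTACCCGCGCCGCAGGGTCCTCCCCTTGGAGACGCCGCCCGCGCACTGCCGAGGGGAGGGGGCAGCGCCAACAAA
Col4a2: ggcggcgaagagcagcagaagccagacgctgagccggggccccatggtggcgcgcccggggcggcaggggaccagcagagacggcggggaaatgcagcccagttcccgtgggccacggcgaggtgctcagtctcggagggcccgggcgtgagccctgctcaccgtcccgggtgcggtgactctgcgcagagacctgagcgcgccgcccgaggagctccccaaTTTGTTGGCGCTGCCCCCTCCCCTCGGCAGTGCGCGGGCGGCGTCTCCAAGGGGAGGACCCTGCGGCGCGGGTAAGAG
Neither window holds the letters CANNTG, the E-box core read by MyoD and related factors. The strand setting of the counting, too, is not given there, and fragments from the overlap cannot be assigned to one gene with certainty.

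In GM, Col4a1 stood at 434 and 621 CPM in the WT-labelled EV line, 606 and 953 in the WT-labelled MUNC line, 678 and 1181 in the knockout-labelled EV line, and 778 and 1061 in the knockout-labelled MUNC line. In DM the same lines had 197 and 136, 638 and 651, 868 and 1012, and 922 and 887 CPM. The 2 WT-labelled EV libraries in DM were the lowest of all 16, and no library of another group overlapped them. Col4a1 fell there by 1.66 ± 0.31 (log2, SE, adjusted p = 0.00168), and in the other lines its change was -0.27 ± 0.30, 0.02 ± 0.30 and -0.02 ± 0.30. Col4a2 followed the same order: 369 and 570 CPM in WT-labelled EV cells in GM, 124 and 87 CPM in DM, and 425 to 821 CPM in the 12 libraries of the other lines. It fell by 2.15 ± 0.36 (adjusted p = 0.000864).

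In DM, Col4a1 was higher by 2.50 ± 0.32 in the knockout-labelled EV line (adjusted p = 0.000243) and by 1.95 ± 0.31 in the WT-labelled MUNC line (adjusted p = 0.000728) than in the WT-labelled EV line. The differences of Col4a2 were 2.56 ± 0.36 (adjusted p = 0.000466) and 2.12 ± 0.36 (adjusted p = 0.00104). All 4 of these calls passed without each library in turn. As a test of unequal DM change, Col4a2 passed for the knockout label (2.12 ± 0.49, adjusted p = 0.048, lost without any 1 of the 8 libraries, 0.0571 to 0.191), while Col4a1 did not (1.68 ± 0.43, adjusted p = 0.0668), and for MUNC neither did (adjusted p = 0.111 and 0.073). The ratio of Col4a1 to Col4a2 in TPM was between 1.06 and 1.56 in all 16 libraries, while their levels ranged from 136 to 1181 and from 87 to 821 CPM. In WT-labelled EV cells the ratio was 1.15 and 1.06 in GM, below every other library, and 1.54 and 1.53 in DM, as Col4a2 fell further than Col4a1.

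Col4a5, a chain of the collagen IV network of kidney, lung and muscle synapses, behaved otherwise and was called in 7 of the 12 comparisons within or between lines, more often than any other member. In GM it stood at 21.2 and 16.4 CPM in the WT-labelled EV line, 59.4 and 49.3 in the WT-labelled MUNC line, 91.1 and 42.5 in the knockout-labelled EV line, and 75.2 and 25.3 in the knockout-labelled MUNC line. The DM levels were 41.8 and 31.9, 227 and 226, 220 and 218, and 188 and 192 CPM. The WT-labelled EV libraries lay below those of every other line in each medium, and in the other 3 lines DM libraries lay above GM libraries. It rose by 2.06 ± 0.44, 1.71 ± 0.44 and 1.92 ± 0.44 in those 3 lines (adjusted p = 0.00361, 0.00851 and 0.00455). The change in WT-labelled EV cells had the same sign, at 0.97 ± 0.43 (adjusted p = 0.0989), and no test of a difference in DM change between lines passed for Col4a5.

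Against WT-labelled EV cells in DM, Col4a5 was higher by 2.57 ± 0.45 in the knockout-labelled line and by 2.62 ± 0.45 with MUNC (adjusted p = 0.00156 and 0.00117). In GM the differences were 1.83 ± 0.44 and 1.53 ± 0.44 (adjusted p = 0.0229 and 0.0389). The GM calls of Col4a5 were lost without replicate 1 or 2 of WT-labelled EV or replicate 1 of the knockout-labelled line (adjusted p = 0.0903, 0.154 and 0.146) and, for MUNC, without any 1 of the 4 libraries (0.0936 to 0.199). The first was also lost in a fit of only the compared groups (0.0944). Its rise in the knockout-labelled EV line was lost without replicate 2 in GM (1.19, adjusted p = 0.0886).

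The remaining collagen IV chains were scarce. Col4a6, the neighbour of Col4a5 on the X chromosome, with its RefSeq transcript start 1343 bases away on the other strand, ranged from 0.175 to 2.73 CPM and passed no comparison. Col4a3 and Col4a4, the partners of Col4a5 in kidney and lung, had 1 to 13 and 1 to 15 counts per library. Summed collagen IV TPM was 112 and 72.9 in WT-labelled EV cells in DM and 212 to 592 in the other 14 libraries.

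**Figure D4:**
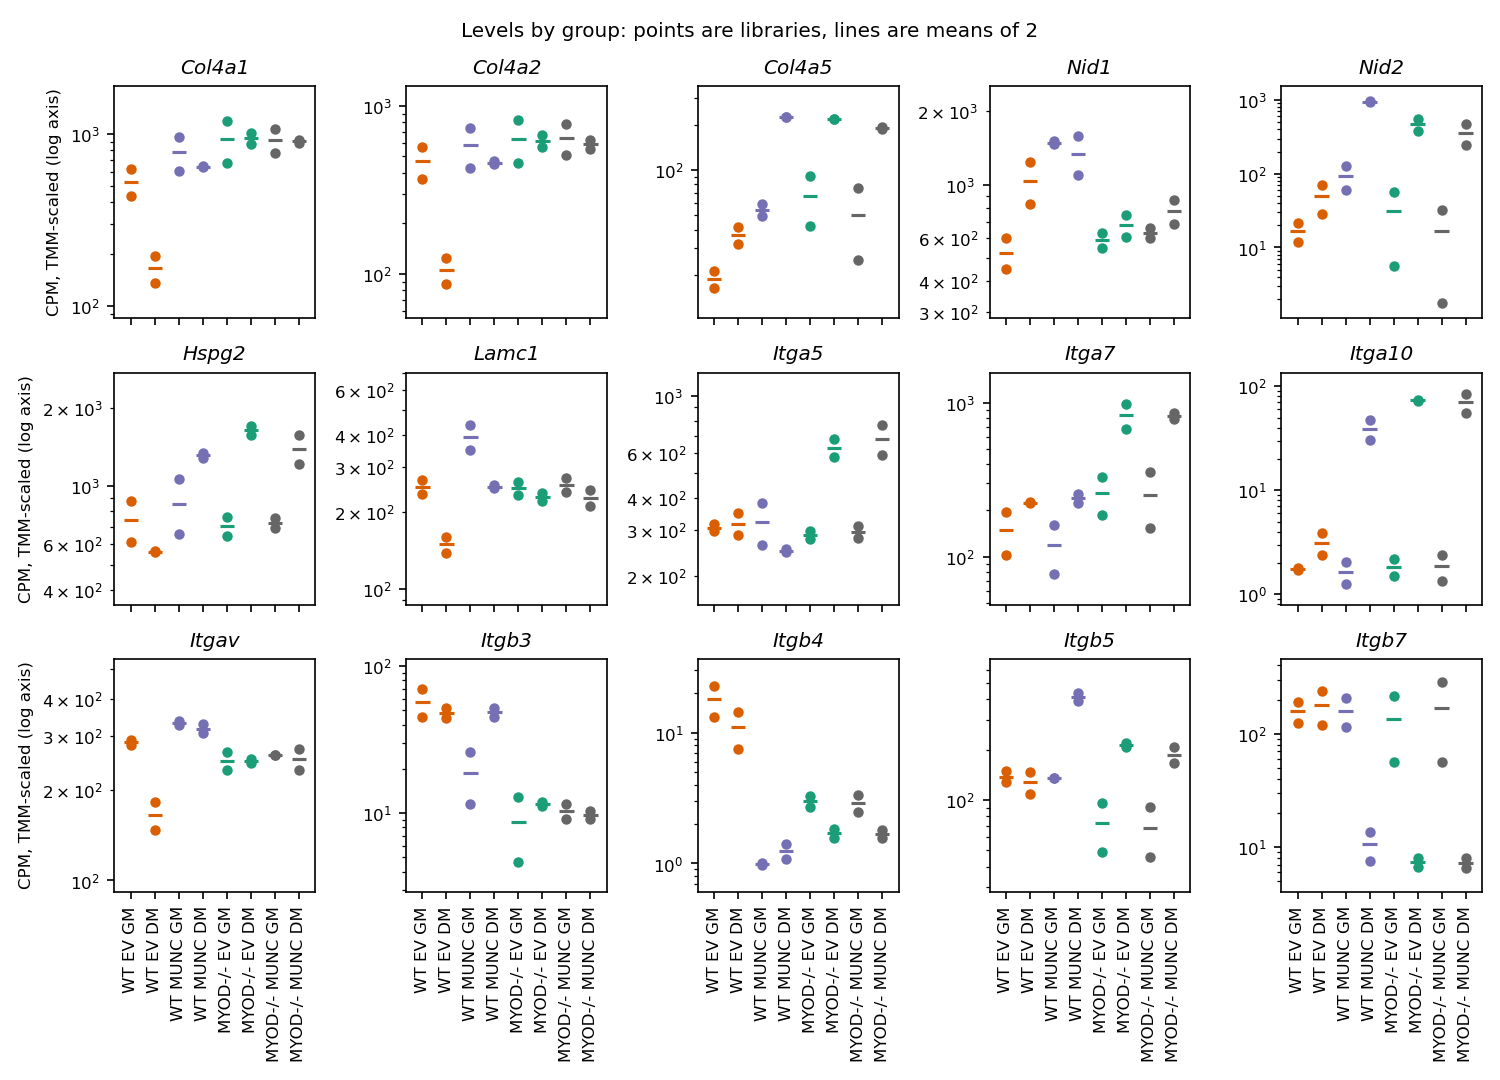
TMM-scaled CPM, on log axes that differ between panels, of 15 members in the 8 groups; points are the 2 libraries of a group and lines their mean. Col4a1 and Col4a2 drop in WT EV DM alone (136 to 197 and 87 to 124 CPM), Itga10 climbs from under 3 CPM to over 30 CPM in DM in the other 3 lines, and Itgb7 falls below 14 CPM there.

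Among the laminin alpha chains, Lama5 was abundant and the others were scarce. Lama5, the alpha chain of laminins widespread in adult tissues, stood in GM at 189.6 and 236 CPM in the WT-labelled EV line, 266 and 309 in the WT-labelled MUNC line, 241 and 327 in the knockout-labelled EV line, and 251 and 303 in the knockout-labelled MUNC line. Its DM levels were 176 and 205, 277 and 358, 333 and 386, and 333 and 311 CPM. The 4 WT-labelled EV libraries lay below the other 12, with no overlap. The difference passed in DM, at 0.92 ± 0.19 for the knockout label (adjusted p = 0.00457) and 0.74 ± 0.19 for MUNC (adjusted p = 0.0124). The second of these was lost without replicate 1 of WT-labelled EV or replicate 2 of WT-labelled MUNC (adjusted p = 0.0892 and 0.112). No DM change of Lama5 passed within a line.

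Lama2 averaged 0.771 CPM in GM and 2.95 CPM in DM in the WT-labelled EV line, 0.932 and 6.91 CPM in the WT-labelled MUNC line, 2.0 and 13.5 CPM in the knockout-labelled EV line, and 1.79 and 13.2 CPM in the knockout-labelled MUNC line. The replicate 1 library lay above the replicate 2 library in 8 of 8 groups. The change passed in the knockout-labelled MUNC line (2.87 ± 1.04, adjusted p = 0.0429), where it was lost without replicate 2 in GM or either replicate in DM (adjusted p = 0.193, 0.109 and 0.0997). Lama3, the alpha chain of epithelial laminin, had 29 and 77 counts in WT-labelled EV cells in DM and 0 to 4 counts in every other library. It passed the filter on low counts only through that group, so its call as higher there (adjusted p = 0.00345) adds nothing to these counts. No fold is given because the other groups are near 0. Lama1, an alpha chain of embryonic basement membranes, had 0 to 7 counts.

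Lamc1, the gamma chain of most laminins, was the laminin gene called most often, in 6 of 12 comparisons. Its GM levels were 234 and 267 CPM in the WT-labelled EV line, 349 and 438 in the WT-labelled MUNC line, 233 and 263 in the knockout-labelled EV line, and 239 and 271 in the knockout-labelled MUNC line. In DM they were 138 and 160, 248 and 254, 236 and 220, and 244 and 210 CPM. WT-labelled EV cells in DM were lowest and WT-labelled MUNC cells in GM highest, neither overlapping another group. Lamc1 fell in both WT-labelled lines, by 0.75 ± 0.15 with EV and by 0.65 ± 0.15 with MUNC (adjusted p = 0.00212 and 0.00448). With MUNC it was higher by 0.65 ± 0.15 in GM and by 0.75 ± 0.15 in DM (adjusted p = 0.0125 and 0.00242), and in DM it was higher by 0.61 ± 0.15 in the knockout-labelled than in the WT-labelled EV line (adjusted p = 0.00851). The GM call was lost without replicate 1 of WT-labelled EV or replicate 2 of WT-labelled MUNC or with only the compared groups (adjusted p = 0.104, 0.115 and 0.091), and the knockout call without replicate 1 of either group (0.0786 and 0.0765).

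Lamb1, the most abundant laminin beta chain per length, was in GM at 253 and 287.5 CPM in the WT-labelled EV line, 289 and 401.5 in the WT-labelled MUNC line, 209 and 335 in the knockout-labelled EV line, and 231 and 418.5 in the knockout-labelled MUNC line. In DM it was at 181 and 190, 308 and 287, 274 and 265, and 298 and 255 CPM, so that the WT-labelled EV libraries in DM were the lowest of the 16. It passed no comparison, and its DM differences from that group were 0.54 ± 0.27 for the knockout label and 0.68 ± 0.27 for MUNC (adjusted p = 0.161 and 0.0779). Lamb2, the beta chain of the laminins at neuromuscular synapses, had 103 and 112 CPM in WT-labelled EV cells in DM and 178 to 270 CPM in the DM libraries of the other lines. The differences were 1.03 ± 0.17 for the knockout label and 1.20 ± 0.17 for MUNC (adjusted p = 0.00096 and 0.000294), and both passed without each library in turn. Its rise with DM in the WT-labelled MUNC line was 0.61 ± 0.17 (adjusted p = 0.0126) and was lost without replicate 1 in GM or replicate 2 in DM (adjusted p = 0.0877 and 0.104).

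Lamb3 and Lamc3, partners in epithelial and rarer laminins, were scarce and lower in DM. Lamb3 ranged from 2.52 to 14.4 CPM in GM and from 1.10 to 3.77 CPM in DM. It fell in the WT-labelled EV, WT-labelled MUNC and knockout-labelled MUNC lines (by 1.75 ± 0.63, 1.88 ± 0.63 and 2.37 ± 0.65, adjusted p = 0.047, 0.0338 and 0.0116). Those calls were lost without any 1 of the 4 libraries (adjusted p 0.0929 to 0.204), without 3 of 4 (0.0815 to 0.177) and without replicate 2 in GM or DM (0.153 and 0.0911), the last also with only the compared groups (0.0528). Lamc3 had 5 and 12 counts in WT-labelled MUNC cells in DM and 21 to 59 counts elsewhere. It fell by 1.84 ± 0.45 in that line (adjusted p = 0.00707), and by 1.23 and 1.14 in the knockout-labelled EV and MUNC lines (adjusted p = 0.027 and 0.0301). The last 2 falls were lost in a fit of only the compared groups (0.0621 and 0.0761). In DM, Lamc3 was lower by 2.14 with MUNC in WT-labelled cells (adjusted p = 0.00316). Between the MUNC lines in DM it was higher by 1.89 in the knockout-labelled line (adjusted p = 0.0102), a call lost without either WT-labelled library.

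Nidogens and perlecan rose on differentiation in 1 to 3 lines each. Nid1, the main linker of laminin to collagen IV, stood in GM at 600 and 450.0 CPM in the WT-labelled EV line, 1467 and 1507 in the WT-labelled MUNC line, 633 and 546 in the knockout-labelled EV line, and 663 and 604 in the knockout-labelled MUNC line. DM brought it to 832 and 1244, 1091 and 1591, 749 and 610, and 864 and 688 CPM. WT-labelled MUNC cells in GM were above every other GM library, and in DM their range overlapped that of WT-labelled EV cells. Nid1 rose by 0.98 ± 0.24 in the WT-labelled EV line (adjusted p = 0.00739), which was lost without replicate 2 in GM or in DM (adjusted p = 0.0733 and 0.0671). With MUNC in WT-labelled cells it was higher by 1.502 ± 0.240 in GM (adjusted p = 0.00196), while the DM difference was 0.37 ± 0.24 (adjusted p = 0.256).

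Nid2, its paralog, was lower than Nid1 in GM and came near it in DM in 3 lines. In GM it stood at 21.2 and 11.9 CPM in the WT-labelled EV line, 127 and 60.9 in the WT-labelled MUNC line, 56.7 and 5.66 in the knockout-labelled EV line, and 31.8 and 1.75 in the knockout-labelled MUNC line. In DM the levels were 70.2 and 28.6, 967 and 933, 548 and 383, and 469 and 249 CPM. DM libraries lay above GM libraries in every line, and replicate 1 lay above replicate 2 in 8 of 8 groups. No test of a difference in DM change between lines passed for Nid2. It rose by 3.34 ± 1.18, 3.90 ± 1.22 and 4.42 ± 1.25 in the lines other than WT-labelled EV (adjusted p = 0.0426, 0.0231 and 0.0138), where the change was 1.58 ± 1.11 (adjusted p = 0.291). The calls were lost without any 1 of 4 libraries in the WT-labelled MUNC line (adjusted p 0.0921 to 0.199), without replicate 2 in GM or replicate 1 in DM in the knockout-labelled EV line (0.115 and 0.073), and without replicate 1 in DM or with only the compared groups in the knockout-labelled MUNC line (0.0556 and 0.0531). The ratio of Nid2 to Nid1 in TPM was 0.0036 to 0.111 in GM and 0.449 to 1.1 in DM of those 3 lines, beside 0.105 and 0.0285 in WT-labelled EV cells in DM. Nid2 overlaps Rtraf by 386 bases, and Rtraf was itself present at 88 to 187 CPM.

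Hspg2 encodes perlecan, the large heparan sulphate proteoglycan of basement membranes. In GM it stood at 610 and 879 CPM in the WT-labelled EV line, 652 and 1062 in the WT-labelled MUNC line, 646 and 759 in the knockout-labelled EV line, and 691 and 752 in the knockout-labelled MUNC line. After differentiation it had 559 and 562, 1346 and 1286, 1581 and 1709, and 1571 and 1219 CPM. WT-labelled EV cells in DM were below all other libraries, and the other 6 DM libraries were above every GM library. Hspg2 rose by 1.23 ± 0.23 in the knockout-labelled EV line and by 0.95 ± 0.23 in the knockout-labelled MUNC line (adjusted p = 0.00153 and 0.00632), the latter lost without replicate 1 in DM (0.72, adjusted p = 0.0719). Its change was 0.62 ± 0.23 in the WT-labelled MUNC line (adjusted p = 0.051) and -0.41 ± 0.23 in the WT-labelled EV line. In DM it was higher than in WT-labelled EV cells by 1.55 ± 0.23 in the knockout-labelled line and by 1.23 ± 0.23 with MUNC (adjusted p = 0.000643 and 0.00207). The DM change differed between the EV lines by 1.64 ± 0.33 (adjusted p = 0.0268), a call lost without 7 of the 8 libraries (0.0724 to 0.112).

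Among the integrin alpha subunits with a mean above 1 CPM in every group, Itga10 showed the widest range of group means as a ratio, from 1.65 to 73.0 CPM. It encodes the alpha10 subunit (chr3:96645584-96664519), a collagen receptor known mainly from cartilage that pairs with beta1. In GM it stood at 1.80 and 1.70 CPM in the WT-labelled EV line, 2.03 and 1.26 in the WT-labelled MUNC line, 2.17 and 1.504 in the knockout-labelled EV line, and 2.41 and 1.35 in the knockout-labelled MUNC line. In DM it stood at 3.90 and 2.38, 47.6 and 30.2, 74.2 and 71.7, and 84.4 and 55.7 CPM. All GM groups overlapped, and the DM libraries of the WT-labelled EV line lay far below those of the other lines. Replicate 1 lay above replicate 2 in 8 of 8 groups. Itga10 rose by 4.56 ± 0.40, 5.31 ± 0.42 and 5.21 ± 0.41 in the other 3 lines (adjusted p = 2.2e-05, 7.93e-06 and 8.41e-06), whereas its change was 0.85 ± 0.37 in WT-labelled EV cells (adjusted p = 0.0915). The DM change was larger than in the WT-labelled EV line by 4.47 ± 0.53 in the knockout-labelled EV line and by 3.71 ± 0.52 in the WT-labelled MUNC line (adjusted p = 0.00353 and 0.00325).

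Itga8 and Itga11 were scarce genes that appeared in DM. Itga8, whose alpha8 beta1 integrin binds nephronectin, had 0 to 7 counts in the GM libraries and 1 and 1 in WT-labelled EV cells in DM. It had 163 and 145 counts in DM in the WT-labelled MUNC line, 78 and 34 in the knockout-labelled EV line, and 97 and 56 in the knockout-labelled MUNC line. The rises passed in these 3 lines (adjusted p = 0.000861, 0.00263 and 0.0039), with no fold given because the other groups are near 0. Itga8 passed the filter on low counts only through these DM groups, so the calls add nothing to the counts given. Its ligand Npnt was at 0.163 to 0.469 CPM in the 4 WT-labelled EV libraries and at 5.94 to 91.9 CPM in the other 12. Itga11, a receptor for fibrillar collagen, had 57 and 48 counts in WT-labelled MUNC cells in DM and 3 to 11 counts in every other library (adjusted p = 0.00269 for its rise in that line).

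Itga5, the fibronectin receptor alpha chain, and Itga7, the laminin receptor alpha chain of muscle, rose in both knockout-labelled lines. Itga5 stood in GM at 297 and 318 CPM in the WT-labelled EV line, 262 and 384 in the WT-labelled MUNC line, 298 and 278 in the knockout-labelled EV line, and 311 and 281 in the knockout-labelled MUNC line, and in DM at 349 and 289, 246 and 253, 677 and 577, and 768 and 586 CPM. The 4 knockout-labelled DM libraries lay above all others. The rises were 1.12 ± 0.19 and 1.19 ± 0.19 (adjusted p = 0.00079 and 0.000545), and the changes in the WT-labelled lines were 0.05 ± 0.19 with EV and -0.37 ± 0.19 with MUNC. In DM the knockout-labelled lines exceeded their WT-labelled counterparts by 0.98 ± 0.19 with EV and 1.44 ± 0.19 with MUNC (adjusted p = 0.0029 and 0.000339), and all 4 of these calls passed without each library in turn. The difference in DM change between the EV lines was 1.07 ± 0.27 (adjusted p = 0.0607).

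Itga7 stood in GM at 196 and 103 CPM in the WT-labelled EV line, 161 and 77.8 in the WT-labelled MUNC line, 331 and 187 in the knockout-labelled EV line, and 353 and 153 in the knockout-labelled MUNC line. The DM levels were 222 and 227, 225 and 255, 680 and 983, and 785 and 862 CPM. The 4 knockout-labelled DM libraries again lay above all others. In GM the WT-labelled MUNC libraries lay below the knockout-labelled EV libraries, and the other pairs of groups overlapped. The rises were 1.68 ± 0.46 and 1.70 ± 0.46 (adjusted p = 0.0124 and 0.0113). They were lost without replicate 2 in GM or DM of the same line (adjusted p = 0.117 and 0.0799, and 0.0886 and 0.0507). In DM the knockout-labelled EV line was higher by 1.89 ± 0.46 (adjusted p = 0.0105), a call lost without either WT-labelled library or replicate 2 of the knockout-labelled line (0.0568, 0.0654 and 0.0698).

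The files hold 2 Itga7 transcripts, of 4035 and 4047 bases. The longer one took 35.7% and 39.3% of Itga7 TPM in WT-labelled EV cells in GM and 53.9% and 64.6% in DM, 26.4% and 29.4% against 41.9% and 47.5% in WT-labelled MUNC cells, and 28.4% and 31.8% against 42.7% and 46.5% in knockout-labelled EV cells. DM libraries lay above GM libraries in these 3 lines. In knockout-labelled MUNC cells the shares were 27.5% and 39.4% in GM and 36.5% and 40.3% in DM, which overlapped. These shares are kallisto's division of fragments that fit both transcripts, and with 2 libraries against 2 an exact permutation test cannot go below p = 0.333, so none was run.

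**Figure D5:**
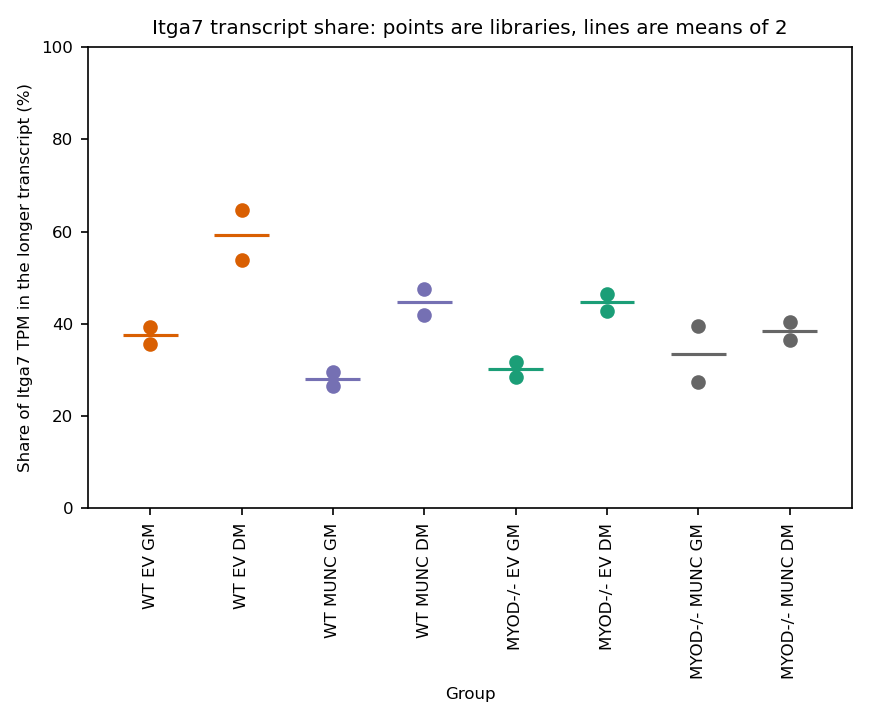
Share of Itga7 TPM in the longer of its 2 transcripts, in percent, for each library (points) of the 8 groups, with the mean of 2 as a line. The shares in DM (36.5% to 64.6%) lie above those in GM (26.4% to 39.4%) in 3 lines and overlap them in MYOD-/- MUNC.

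Itga3 and Itgav separated the WT-labelled EV line in different ways. Itga3, a laminin receptor alpha chain, was at 120 to 147 CPM in the 4 WT-labelled EV libraries and 187 to 320 CPM in the other 12, in GM as in DM. It was higher with MUNC by 0.98 ± 0.18 in GM and 1.10 ± 0.18 in DM (adjusted p = 0.00409 and 0.000815) and higher in the knockout-labelled EV line by 0.91 ± 0.18 in DM (adjusted p = 0.00306). Itgav, the alpha chain of receptors for vitronectin and fibronectin, fell from 281 and 292 CPM to 182 and 147 CPM in WT-labelled EV cells and was at 232 to 337 CPM in the other lines. The fall was 0.80 ± 0.13 (adjusted p = 0.000635), and the DM differences were 0.60 ± 0.13 for the knockout label and 0.95 ± 0.13 for MUNC (adjusted p = 0.00487 and 0.000236). The knockout difference was lost without replicate 2 of WT-labelled EV in DM (0.43, adjusted p = 0.0603).

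Itga6, another laminin receptor alpha chain, went down with differentiation in 1 line. In WT-labelled MUNC cells it was at 109 and 163 CPM in GM and 46.7 and 60.7 CPM in DM, a fall of 1.34 ± 0.38 (adjusted p = 0.0164). WT-labelled EV cells in DM had 108.1 and 184 CPM, and MUNC was lower by 1.44 ± 0.38 (adjusted p = 0.0138). For Itga6, replicate 2 lay above replicate 1 in 8 of 8 groups. Leaving out replicate 2 in GM or replicate 1 in DM of the MUNC line ended the first call (adjusted p = 0.11 and 0.111), and leaving out replicate 2 of EV or replicate 1 of MUNC the second (0.119 and 0.103). Itga4, the alpha chain that pairs with beta1 or beta7, was at 1.26 to 3.50 CPM throughout. It rose by 1.14 ± 0.31 in the knockout-labelled EV line (adjusted p = 0.0119), which was lost without replicate 2 in GM (0.86) or in DM (1.06, adjusted p = 0.0614).

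Itgb1 carried 51.0% to 87.3% of the summed integrin beta TPM. In GM it stood at 812 and 648 CPM in the WT-labelled EV line, 987 and 910 in the WT-labelled MUNC line, 1096 and 1025 in the knockout-labelled EV line, and 1172 and 1122 in the knockout-labelled MUNC line. DM brought it to 839 and 606, 1103 and 966, 1532 and 1273, and 1657 and 1729 CPM. The WT-labelled EV libraries were the 4 lowest and the knockout-labelled DM libraries the 4 highest. Itgb1 was higher by 0.96 ± 0.17 in knockout-labelled than in WT-labelled EV cells in DM (adjusted p = 0.00182). It rose by 0.56 ± 0.17 in the knockout-labelled MUNC line (adjusted p = 0.0197), a call lost without any 1 of the 4 libraries (0.0507 to 0.112) and with only the compared groups (0.0649).

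Itgb5 and Itgb7 changed in opposite directions in the same 3 lines. Itgb5 (chr16:33829665-33949338), which pairs with alphaV to bind vitronectin, stood in GM at 128 and 148 CPM in the WT-labelled EV line, 135 and 136 in the WT-labelled MUNC line, 95.9 and 49.1 in the knockout-labelled EV line, and 91.4 and 45.3 in the knockout-labelled MUNC line. After differentiation it had 148 and 109, 389 and 434, 208 and 219, and 206 and 166 CPM. DM libraries lay above GM libraries in every line but WT-labelled EV, where they overlapped. Itgb5 rose by 1.603 ± 0.338, 1.56 ± 0.34 and 1.44 ± 0.34 (adjusted p = 0.00329, 0.0035 and 0.0051), calls that passed without each library in turn, and changed by -0.11 ± 0.33 in the WT-labelled EV line. The tests of the difference from that line gave 1.66 ± 0.47 for the knockout label and 1.71 ± 0.47 for MUNC (adjusted p = 0.0946 and 0.0778). In DM, Itgb5 was higher with MUNC in WT-labelled cells by 1.68 ± 0.34 (adjusted p = 0.00306).

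Itgb7 (chr15:102215994-102233405), known from leukocyte integrins, ran the other way. Its GM levels were 124 and 190 CPM in the WT-labelled EV line, 113 and 204 in the WT-labelled MUNC line, 56.1 and 213 in the knockout-labelled EV line, and 55.9 and 283 in the knockout-labelled MUNC line. In DM they were 119 and 236, 7.52 and 13.7, 6.69 and 7.94, and 6.46 and 7.91 CPM. Replicate 2 lay above replicate 1 in 8 of 8 groups, and the 6 DM libraries outside the WT-labelled EV line were below all other libraries. Itgb7 fell by 3.90 ± 0.81, 4.20 ± 0.82 and 4.56 ± 0.83 in those lines (adjusted p = 0.00294, 0.00187 and 0.00124) and changed by 0.18 ± 0.72 in the WT-labelled EV line. The tests of the difference gave -4.38 ± 1.06 and -4.08 ± 1.05 (adjusted p = 0.0555 and 0.0621). In DM it was lower than in WT-labelled EV cells by 4.60 ± 0.84 in the knockout-labelled line and 4.06 ± 0.81 with MUNC (adjusted p = 0.00199 and 0.00296). Ptprc, which encodes the pan-leukocyte antigen CD45, was at 0 to 0.21 CPM in all 16 libraries.

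Itgb3 and Itgb4 were called more often between lines than between media. Itgb4, the partner of alpha6 in hemidesmosomes, had 13.2 and 22.7 CPM in GM and 7.55 and 14.4 CPM in DM in the WT-labelled EV line. It had 1.01, 0.975, 1.41 and 1.08 CPM in the WT-labelled MUNC line and 1.56 to 3.32 CPM in the knockout-labelled lines. The WT-labelled EV libraries were thus the 4 highest. Itgb4 was lower in the knockout-labelled EV line by 2.59 ± 0.35 in GM and 2.69 ± 0.35 in DM (adjusted p = 0.000839 and 0.000268) and lower with MUNC by 4.17 ± 0.38 and 3.14 ± 0.36 (adjusted p = 4.29e-05 and 7.52e-05). All 4 calls passed without each library in turn. Between the MUNC lines in GM, Itgb4 was higher in the knockout-labelled line by 1.54 (adjusted p = 0.0176). That call was lost without either WT-labelled library or replicate 2 of the knockout-labelled line, and with only the compared groups (1.55, adjusted p = 0.149). Itgb4 shares 56 bases with Galk1, which was at 34.1 to 101 CPM.

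Itgb3, which pairs with alphaV, stood in GM at 69.7 and 45.1 CPM in the WT-labelled EV line, 26.1 and 11.6 in the WT-labelled MUNC line, 12.9 and 4.69 in the knockout-labelled EV line, and 11.5 and 9.20 in the knockout-labelled MUNC line. In DM it stood at 51.7 and 44.6, 45.3 and 51.6, 11.3 and 11.8, and 10.4 and 9.08 CPM. The WT-labelled MUNC line reached the level of WT-labelled EV cells in DM and lay below it in GM. Itgb3 rose with DM in the WT-labelled MUNC line by 1.36 (adjusted p = 0.0265). This call was lost without replicate 2 in GM or replicate 1 or 2 in DM (changes of 0.887, 1.436 and 1.261). Against WT-labelled EV cells, the knockout-labelled EV line was lower by 2.71 ± 0.46 in GM and 2.06 ± 0.44 in DM (adjusted p = 0.00332 and 0.00511), and the GM call was lost in a fit of only the compared groups (-2.66, adjusted p = 0.0859). Between the MUNC lines in DM, the knockout-labelled line was lower by 2.32 ± 0.45 (adjusted p = 0.00366). In WT-labelled cells MUNC was lower by 1.61 ± 0.43 in GM (adjusted p = 0.031), a call lost without replicate 1 of EV or replicate 2 of MUNC or with only the compared groups (adjusted p = 0.188, 0.201 and 0.11), and the DM difference was 0.01 ± 0.42 (adjusted p = 0.991).

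Itgb8, the partner of alphaV that activates TGF-beta, rose in all 4 lines. In GM it was at 1.10 to 7.89 CPM, and in DM at 24.2 and 16.4 CPM in the WT-labelled EV line, 19.9 and 17.1 in the WT-labelled MUNC line, 11.98 and 11.4 in the knockout-labelled EV line, and 9.99 and 12.2 in the knockout-labelled MUNC line. Every DM library lay above every GM library. The rises were 2.29 ± 0.60, 1.76 ± 0.59, 1.84 ± 0.60 and 2.07 ± 0.60 (adjusted p = 0.0114, 0.0331, 0.0287 and 0.0158). Each call was lost on leaving out some library: replicate 2 in GM or replicate 1 in DM of the WT-labelled EV line (adjusted p = 0.0915 and 0.0594), replicate 2 in GM or either DM replicate of the WT-labelled MUNC (0.199, 0.116 and 0.0767) and knockout-labelled EV lines (0.204, 0.0945 and 0.0786), and replicate 2 in GM or DM of the knockout-labelled MUNC line (0.0931 and 0.0695), where a fit of only the compared groups lost it too (0.0582). Itgb6, an epithelial subunit, was at 0.177 to 0.696 CPM in all libraries.

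The promoter windows of 27 members were in the RefSeq table, 30 windows in all. CANNTG, which reads the same pattern on both strands, was in 21 of 30 (70.0%) and in 72.3% of the 32851 windows of all genes. CAGCTG, 1 form of it, was in 6 of 30 (20.0%) and in 16.3% of all windows. The windows of 3 members that rose in DM in both knockout-labelled lines are shown side by side because they differ in these letters: Itgb5 (chr16:33829415-33829714, plus strand), Itga5 (chr15:103366742-103367041, minus strand) and Itga10 (chr3:96645334-96645633, plus strand), with CANNTG in capitals.
Itgb5: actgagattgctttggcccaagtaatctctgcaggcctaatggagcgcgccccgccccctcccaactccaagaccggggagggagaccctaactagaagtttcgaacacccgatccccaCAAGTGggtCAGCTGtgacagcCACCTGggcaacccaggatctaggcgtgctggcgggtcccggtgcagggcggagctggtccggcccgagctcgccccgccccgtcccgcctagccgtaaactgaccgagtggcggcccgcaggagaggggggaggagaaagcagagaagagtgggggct
Itga5: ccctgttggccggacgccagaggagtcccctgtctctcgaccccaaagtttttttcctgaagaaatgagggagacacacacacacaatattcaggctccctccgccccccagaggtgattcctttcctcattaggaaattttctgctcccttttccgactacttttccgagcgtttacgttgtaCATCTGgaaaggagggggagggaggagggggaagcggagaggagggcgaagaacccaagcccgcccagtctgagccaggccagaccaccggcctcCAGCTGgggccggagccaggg
Itga10: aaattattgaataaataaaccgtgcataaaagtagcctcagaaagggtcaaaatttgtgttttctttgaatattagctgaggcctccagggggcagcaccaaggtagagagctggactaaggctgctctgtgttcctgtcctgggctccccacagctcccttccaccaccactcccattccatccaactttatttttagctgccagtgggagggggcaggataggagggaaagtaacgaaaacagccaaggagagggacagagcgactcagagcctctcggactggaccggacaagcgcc
Itgb5 held 3 matches, all within the part before the transcript start, Itga5 held 2, 1 on each side of it, and Itga10 held 0. A match is a description of the letters and no evidence of binding.

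Other genes of the pathway were read from lists of related components. For comparison, 19.2%, 20.5%, 23.5% and 24.4% of all genes tested rose and 18.3%, 19.2%, 19.7% and 20.4% fell in the WT-labelled EV, WT-labelled MUNC, knockout-labelled EV and knockout-labelled MUNC lines, and no list was tested against these shares. Among 15 tested basement membrane components outside the 38 genes, 3, 3, 6 and 5 rose and 2, 5, 4 and 5 fell with DM in the same order of lines. Agrn, which encodes agrin, a proteoglycan that binds laminin and dystroglycan, rose in each, by 3.26 ± 0.18, 1.36 ± 0.17, 3.58 ± 0.19 and 3.47 ± 0.18 (adjusted p at most 0.000135). Its rise was smaller in the WT-labelled MUNC than in the WT-labelled EV line by 1.90 ± 0.24 (adjusted p = 0.00149).

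Of 11 other matrix receptors, 2, 3, 5 and 5 rose and 3, 1, 0 and 0 fell in the same order of lines. Dag1, which encodes dystroglycan, rose by 1.13 ± 0.17, 1.22 ± 0.17 and 1.24 ± 0.17 in the lines other than WT-labelled EV (adjusted p = 0.000472, 0.00025 and 0.000234). Of 10 integrin ligands outside the basement membrane, 3, 5, 5 and 4 rose and 1, 1, 0 and 0 fell, and Fn1, which encodes fibronectin, rose by 1.52 ± 0.27, 2.37 ± 0.28, 2.44 ± 0.28 and 1.71 ± 0.28. Of 23 integrin adaptors and signalling genes, 1, 0, 2 and 2 rose and 6, 3, 0 and 1 fell, so that the higher calls were below the share of all genes in each line. Zyx, an adhesion plaque protein, rose by 1.37 ± 0.21 and 1.47 ± 0.21 in the knockout-labelled lines, and Itgb1bp2, the muscle protein melusin that binds beta1, by 3.22 ± 0.61 and 3.21 ± 0.55. Of 7 matrix proteases and inhibitors, 3, 3, 4 and 4 rose and 1, 0, 2 and 2 fell, with Mmp14, a membrane-bound matrix protease, up by 1.11 ± 0.27, 1.33 ± 0.27, 1.38 ± 0.27 and 1.47 ± 0.27.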

How the data were processed

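Per the labels' protocols, RNA was taken with RNeasy columns and directional poly(A) libraries were sequenced in pairs. Per the submitters' processing notes, bcl2fastq, kallisto and mm10 were used (versions and kallisto's strand setting: not given in the sources used here). The authors deposited estimated counts, effective length and TPM for 35818 transcripts per library, per the file headers. Counts were summed per gene by RefSeq symbols (GRCm38.p6, 35487 transcripts) or GENCODE symbols (193), leaving out 138 transcripts with no symbol (0.2799% to 0.9413% of counts), and rounded. TPM was summed likewise.

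In R 4.3.3, edgeR 4.0.16 (TMM, filterByExpr, 14972 genes) fitted 1 model with a mean per group to all 16 libraries (8 residual degrees of freedom, common dispersion 0.0474). The 14 comparisons used its quasi-likelihood test with Benjamini-Hochberg adjustment over all genes and a threshold of 0.05. SE is that of the log2 fold change. Replicates of a group differed beyond sampling noise (159 to 612 for chi-square over its degrees of freedom) and were counted as 2. On simulated counts the test recovered 61% of genes changed 2-fold and 99% of those changed 4-fold for the WT-labelled EV differentiation, with 3.03% of calls false. For the knockout label in DM with EV it recovered 45% and 96%, with 4.73% false. The simulation changed 100 of 14972 genes at each fold, none of them scarce. Libraries were drawn independently at the fitted dispersions. In the data far more genes were called and same-numbered libraries deviated together, so these shares need not hold there.

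Every one of the 38 genes is accounted for. Values per library are given for those called most often and for the highest of each family per length, with the scarce lowest ones and steadier members as ranges. Other genes come from lists of related components and cell type markers, with the smallest adjusted p as examples. The members and lists were chosen with earlier results of these data known. Alternatives were DESeq2 1.42.0, its size factors, no filter, a length offset, only the compared groups, a replicate block and leaving out each library.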

Additional observations from a re-analysis of the deposited data

Results flagged for a closer look

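In 7 cases the change from GM to DM of a member differed between lines by a test of the difference itself. Between the knockout-labelled and WT-labelled EV lines, the log2 change was larger in the former by 4.465 ± 0.53 for Itga10 (adjusted p = 0.00353), 2.119 ± 0.49 for Col4a2 (0.048), 1.638 ± 0.33 for Hspg2 (0.0268) and 0.798 ± 0.18 for Itgav (0.0426). Between the WT-labelled MUNC and EV lines, it was larger in the former by 3.707 ± 0.52 for Itga10 (0.00325), 0.973 ± 0.23 for Lamb2 (0.0479) and 0.74 ± 0.18 for Itgav (0.0493). Both tests share the WT-labelled EV libraries. Itga10 passed without each library in turn, and the other 5 were lost without at least 7 of the 8 libraries of their test.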

How the results depend on the processing

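Of 115 called pairs of member and comparison, 62 passed under every alternative, 34 were lost only on leaving out a library, 19 were lost under another alternative and 0 reversed. DESeq2 ended 1 call, its size factors within edgeR 4, no filter 5, only the compared groups 19, and the length offset and the replicate block 0. Counts are members first, then all genes, where both moved. With the replicate block, calls for the knockout label rose from 3 to 8 and from 1550 to 2405 (EV, GM) and from 3 to 6 and 1496 to 2379 (MUNC, GM). The block moved the 2 differences in DM change from 4 to 8 and 387 to 898 (knockout label) and from 3 to 9 and 499 to 1033 (MUNC). Same-numbered libraries of 28 pairs of groups deviated together with correlations of -0.0126 to 0.712 (median 0.255). Replicate 1 lay above replicate 2 in 8 of 8 groups for Col4a6, Lama2, Nid2 and Itga10, and below it for Itga6 and Itgb7. The labels name no shared batch, so the main fit holds no term for the number. Whether same-numbered libraries share a batch was not tested. DESeq2 gave 8 and 977, and 11 and 1153, for the 2 differences in DM change. It also gave 6 members for the knockout label (EV, GM) and 4 genes for MUNC in knockout-labelled DM cells (2 with no filter). DESeq2's size factors gave 2 and 1 members for the differences. With only the compared groups, differentiation of the knockout-labelled MUNC line gave 9 and 4227, the knockout label 1 and 324 (EV, GM), 0 and 70 (MUNC, GM) and 15 members (MUNC, DM), MUNC in WT-labelled GM cells 818 genes and in knockout-labelled DM cells 1 gene, and the difference for the knockout label 2 and 160.

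Leaving out each library in turn gave, for differentiation, 5 to 9 members in the WT-labelled EV line (8 with all libraries), 9 to 15 in WT-labelled MUNC (15), 6 to 15 and 4290 to 5841 genes in knockout-labelled EV (12 and 6470), and 8 to 13 in knockout-labelled MUNC (14). For the knockout label it gave 700 to 847 genes (EV, GM), 2606 to 3822 (EV, DM), 1 to 5 and 607 to 1573 (MUNC, GM), and 3 to 5 and 1593 to 2361 (MUNC, DM). For MUNC in WT-labelled cells it gave 3 to 5 and 963 to 1200 in GM, and 3140 to 4119 genes in DM. The differences in DM change ranged from 1 to 3 and 57 to 333 (knockout label) and from 1 to 3 and 198 to 496 (MUNC). A lone library left in a group was assumed to vary like the other groups. The cause of these moves was not tested. Depth limits the 6 untested members and Col4a4, Itga8, Itga11, Lama3 and Lamc3, which had few counts in most groups.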
